A study of Mus musculus with 9 samples.

Results

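The data are RNA sequencing libraries of BV-2 cells, an immortalised mouse microglial line that is used as a stand-in for the resident macrophages of the brain. Of the 9 libraries in all, 6 came from primed cells, and these differ from each other mainly along a single axis. The axis was read off Malat1 and Neat1, a pair of long non-coding RNAs that stay in the nucleus: 4 primed libraries held much of both and are called Malat1-high here (HP 4, HP 5, ULP 5 and ULP 6), and 2 held little of either and are called Malat1-low (HP 6 and ULP 4). HP cells were primed with LPS (bacterial lipopolysaccharide) at 100 ng/ml and then given LPS again at 100 ng/ml. ULP cells were primed at 1 fg/ml and then given 100 ng/ml. UP cells, the remaining 3 libraries, had no priming and received 100 ng/ml LPS a single time. Cells of all groups were therefore LPS-stimulated before harvest, and no library comes from resting cells. The groups follow the titles and descriptions of the samples. A separate field for the priming concentration gives the HP and ULP doses the other way round, so every statement on HP against ULP rests on the titles. The labels do not state whether the libraries are independent cultures, so a p-value here speaks of variation among libraries that could be purely technical. They also name no batch of extraction or library preparation that could be set beside the classes.

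Malat1 builds up in nuclear speckles, bodies in which splicing factors are stored, and Neat1 is the scaffold of a neighbouring body, the paraspeckle. Neither RNA is translated, and both are known to be retained in the nucleus, whereas most messenger RNA in a cell is cytoplasmic. Libraries of this kind start from polyadenylated RNA, and each library reports shares of that RNA, not amounts per cell. In bulk libraries, fewer cells of a type and less RNA per cell cannot be told apart.

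The libraries were alike in depth. Total assigned counts were 26094500 ± 1381100 (SD, n = 4) in Malat1-high libraries, against 26144184 in ULP 4 and 25561360 in HP 6, an exact two-sided permutation test over 15 regroupings gave p = 0.867, and 0.0667 is the smallest p that 4 against 2 libraries can give. Microglial and macrophage genes were well represented in every primed library. Their summed level was 4460 to 4817 CPM (counts scaled to the same library size) in Malat1-high and 5059 to 5328 CPM in Malat1-low libraries, while the homeostatic markers Cx3cr1, Gpr34 and P2ry12 had at most 4 counts in any primed library and Sall1 had 0. The 15 markers of neurons, astrocytes, oligodendrocytes, endothelium, fibroblasts and T cells summed to 5.63 to 7.11 CPM in Malat1-high and 6.26 to 7.27 CPM in Malat1-low libraries, and 5 of them had no count in any primed library (Aqp4, Cd3e, Cldn5, Col3a1 and Rbfox3).

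Malat1 was at 238 and 203 CPM in ULP 5 and ULP 6 and at 309 and 648 CPM in HP 4 and HP 5, against 34.7 CPM in ULP 4 and 34.8 CPM in HP 6. Neat1 was at 60.8 and 76.6 CPM in ULP 5 and ULP 6 and at 143 and 375 CPM in HP 4 and HP 5, against 16.4 CPM in ULP 4 and 27.8 CPM in HP 6. HP 5 was the highest library for both genes, and the Malat1-low pair lay close to the UP libraries, which held 15.9 to 22.5 CPM of Malat1 and 7.15 to 14.8 CPM of Neat1. Because the 2 classes were chosen by these measured levels, and the genes of a library move together, no test is given for any gene between Malat1-high and Malat1-low libraries. All such values are a description of these 6 libraries.

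**Figure D1:**
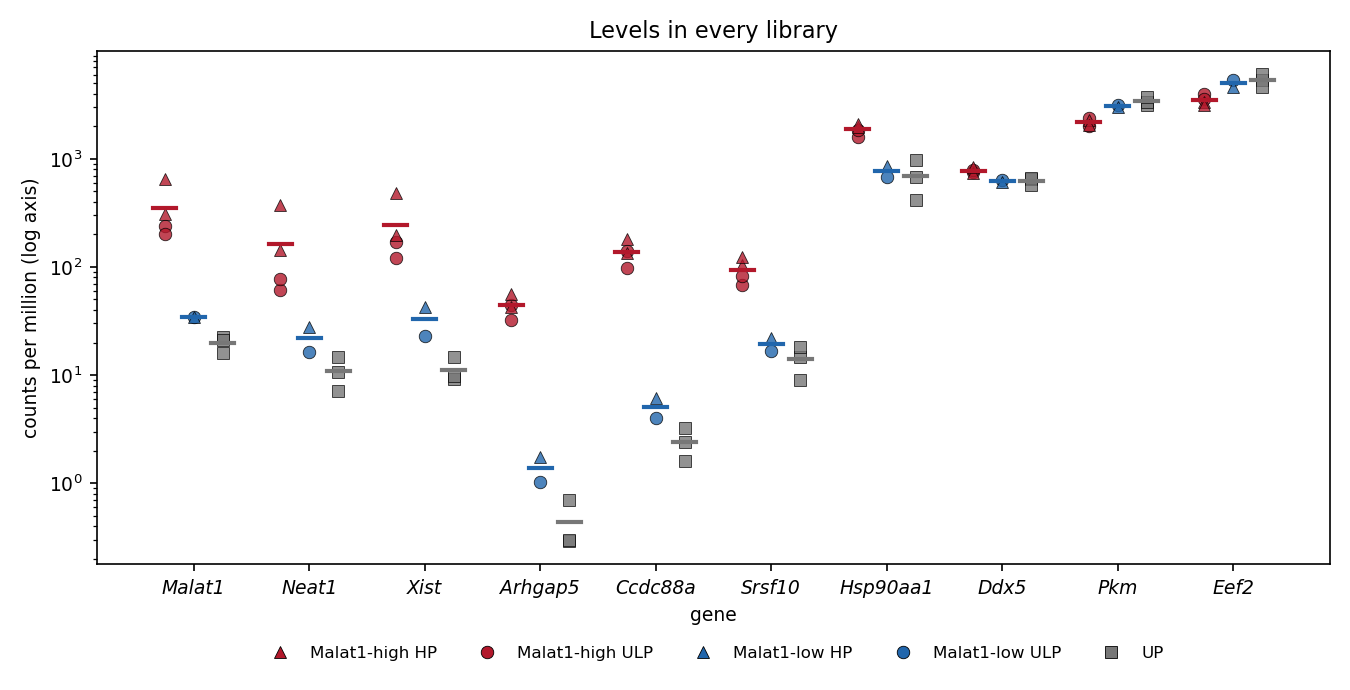
Levels of 10 genes in CPM (log axis) in every library, with Malat1-high libraries on the left of each gene, Malat1-low libraries in the middle and UP libraries on the right; triangles are HP, circles ULP and squares UP libraries, and bars are means. Arhgap5 averaged 44.1 CPM in Malat1-high and 1.38 CPM in Malat1-low libraries, Ddx5 averaged 778 CPM in Malat1-high and 620 CPM in Malat1-low libraries, and Pkm was lower in Malat1-high libraries.

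The axis reached far beyond the RNAs that defined it. The first principal component of the 6 primed libraries took 79.5% of their variance, with the Malat1-high libraries at 15.9 to 47.8 and the Malat1-low libraries at -68.3 (ULP 4) and -50.5 (HP 6). Of 14702 genes with enough counts, 4758 (32.4%) were higher in all 4 Malat1-high libraries than in both Malat1-low ones, and 4620 (31.4%) were lower in all 4. The difference used from here on is the mean over the 2 priming doses of Malat1-high minus Malat1-low log2 CPM, so that dose does not enter it. A gene is called set apart where the 4 and the 2 libraries do not overlap and this difference is at least 1 in size, a doubling. On that rule 1662 genes (11.3%) were set apart as higher in Malat1-high libraries and 4 (0.0272%) as lower, and the genes nearest to the limit had differences of 1.00009 inside and 0.998723 outside it.

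The shape of the axis was lopsided. The median difference over all genes was -0.02 and the quartiles were -0.28 and 0.45, whereas the lowest value was -1.15, so many genes were a little lower and fewer were much higher in Malat1-high libraries. Among the genes set apart as higher, 433 differed by at least 2 and 123 by at least 3 on the log2 scale. Together these 1662 genes took 5.97% to 8.32% of all counts in Malat1-high libraries, against 2.02% in ULP 4 and 2.65% in HP 6. The 4 lower genes, named because they are so few, were Tymp, Ier5l and the processed pseudogenes Gm15796 and Gm17800, all with a mean under 3 CPM. Their number was 31 without ULP 4, 24 without HP 4, 23 without HP 6, 13 without ULP 5, 7 without ULP 6 and 2 without HP 5.

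The 2 priming doses can be looked at one beside the other, although the choice of the 1662 genes fixes a positive difference at each dose. Within HP, HP 4 and HP 5 lay above HP 6 by a median of 1.53 over the 1662 genes, and within ULP, ULP 5 and ULP 6 lay above ULP 4 by a median of 1.55, on the log2 scale. In 1359 of the 1662 genes both doses gave a difference of at least 1. Over all 14702 genes the differences at the 2 doses had a Pearson correlation of 0.898 and a Spearman correlation of 0.843, a description across genes, which share the libraries and are not replicates. The UP libraries lay on the Malat1-low side: in 1610 of the 1662 genes all 3 UP libraries were below all 4 Malat1-high libraries.

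**Figure D2:**
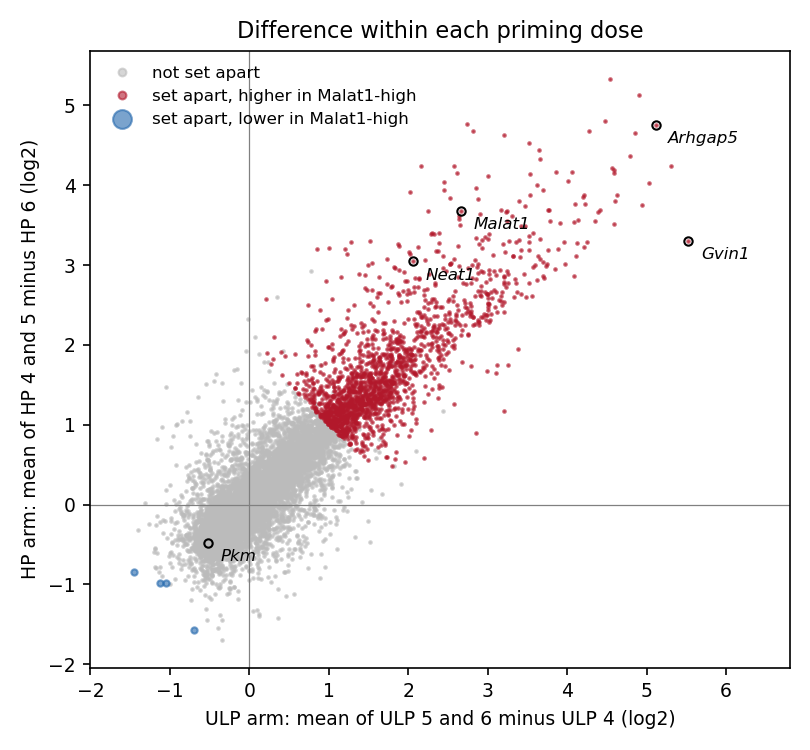
Each point is a gene, with its log2 difference between Malat1-high and Malat1-low libraries within ULP on the horizontal and within HP on the vertical axis; red genes are set apart as higher and blue genes as lower in Malat1-high libraries. Malat1 differed by 3.68 within HP and 2.66 within ULP, Arhgap5 by 4.76 within HP and 5.11 within ULP, and Gvin1 by 3.31 within HP and 5.52 within ULP.

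The genes with the largest differences were protein-coding, most of them for large proteins. Whether their transcripts lay in the nucleus or the cytoplasm was not measured. Arhgap5, a GTPase-activating protein, was at 32.6, 44.8, 42.4 and 56.6 CPM in ULP 5, ULP 6, HP 4 and HP 5, against 1.03 CPM in ULP 4 and 1.74 CPM in HP 6. Cep290, a protein of the ciliary base, was at 4.31, 9.12, 10.2 and 18.3 CPM in the same libraries, against 0.198 and 0.264 CPM, which are 5 and 7 counts. For both genes the lowest Malat1-high library lay far above the higher Malat1-low library, and the log2 differences were 4.94 and 4.93.

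Among the 10 largest were also Casc5, a kinetochore scaffold (log2 difference 4.78), Ccdc88a, an actin-binding protein of the cell front (4.75), Lcorl (4.58), Chml, a Rab escort protein (4.53), the zinc finger gene Zfp518a (4.47), Gvin1, an interferon-inducible very large GTPase (4.42), and Dzip3, an RNA-binding ubiquitin ligase (4.39). Gvin1 belongs to a family of near-identical copies, so its counts may be shared between them. In UP libraries Arhgap5 had 0.708, 0.295 and 0.301 CPM, below both Malat1-low libraries, whereas Casc5, with 1.06, 1.05 and 0.527 CPM, overlapped them.

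What these genes have in common that the choice of libraries did not use is the base composition of their transcripts. The GC content of the reference transcript had a median of 42.4% over the genes set apart as higher and of 50.1% over all genes with a reference transcript (14550 genes, 99.0% of those tested). Over 11260 protein-coding genes, GC content and the log2 difference had a Spearman correlation of -0.63. This is a description across genes of the same 6 libraries. To show what the composition looks like, the 60-base window of lowest GC content was taken from the coding exons of 3 of the largest differences and of 3 abundant genes that were lower in Malat1-high libraries, and from the transcript of Malat1 and Neat1. The windows run 5′ to 3′ along the transcript, the capitals mark the longest run of A and T, and the sequences are GENCODE transcripts on GRCm39.
Arhgap5: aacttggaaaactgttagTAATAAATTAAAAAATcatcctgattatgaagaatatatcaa
Cep290: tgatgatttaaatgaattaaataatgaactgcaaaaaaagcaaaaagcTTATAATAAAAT
Casc5: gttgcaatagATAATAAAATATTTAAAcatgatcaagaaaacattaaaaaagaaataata
Malat1: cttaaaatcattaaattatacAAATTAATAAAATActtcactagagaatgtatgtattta
Neat1: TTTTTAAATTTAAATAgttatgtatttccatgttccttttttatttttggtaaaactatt
Eef2: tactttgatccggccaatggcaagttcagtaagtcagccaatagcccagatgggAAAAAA
Pkm: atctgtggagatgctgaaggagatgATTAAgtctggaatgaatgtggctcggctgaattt
Aldoa: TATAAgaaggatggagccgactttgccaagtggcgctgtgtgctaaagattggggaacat

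The Arhgap5 window lies in exon 2 of 7, at chr12:52563894-52563953 on the plus strand, the Cep290 window in exon 40 of 54, at chr10:100384673-100384732 on the plus strand, and the Casc5 window in exon 8 of 24, at chr2:118899708-118899767 on the plus strand. Their GC contents were 21.7%, 18.3% and 16.7%. The windows of Malat1 (chr19:5848414-5848473, minus strand) and Neat1 (chr19:5881241-5881300, minus strand) both had 16.7%, and each transcript has a single exon. At the other end, the poorest window of Eef2 (exon 6 of 14, chr10:81015181-81015240, plus strand) still held 45.0% GC, that of Pkm (exon 3 of 11, chr9:59573159-59573218, plus strand) 43.3%, and that of Aldoa (exon 5 of 9, chr7:126395836-126395895, minus strand) 48.3%. Flna, a cross-linker of actin with a log2 difference of -0.40 and a long transcript, lay between, its poorest coding window holding 36.7% GC (exon 16 of 46, chrX:73281514-73281573, minus strand).

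The difference changed step by step with GC content. Genes were ordered by GC content into 10 deciles of 1455 genes. In decile 1, with the lowest GC content, the median log2 difference was 1.12 and 54.3% of genes were set apart as higher, against 11.3% of all genes tested. In decile 2 these values were 0.46 and 21.5%, and in decile 5 they were -0.02 and 4.81%. In decile 10, with the highest GC content, the median was -0.28 and 1.72% were set apart. Decile 1 took 12.3% to 14.4% of all counts in Malat1-high libraries, against 9.72% in ULP 4 and 8.47% in HP 6. In UP libraries it took 7.68% to 8.48%.

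**Figure D3:**
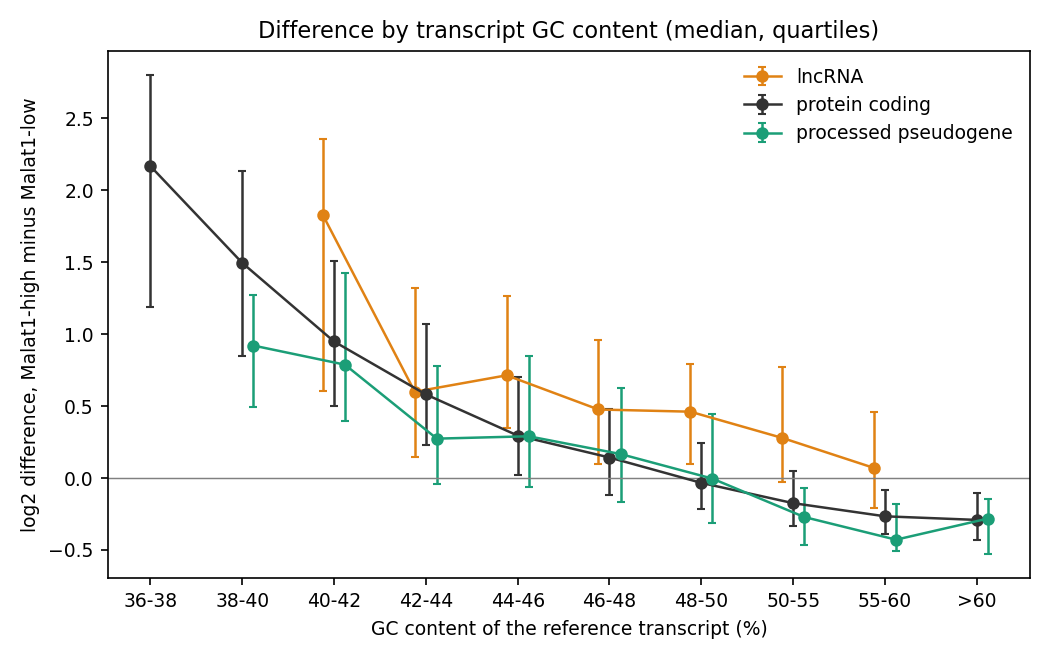
Median log2 difference (Malat1-high minus Malat1-low) of genes grouped by the GC content of the reference transcript, with bars from the lower to the upper quartile, for groups of at least 20 genes. Protein-coding genes with 40% to 42% GC had a median of 0.95 and those with 55% to 60% had -0.27, and long non-coding RNAs lay above coding genes in each group drawn.

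Coding sequence and 3′ untranslated region were both involved. Over 8985 coding genes with at least 600 coding bases and 200 bases of 3′ untranslated region, the log2 difference had a Spearman correlation of -0.66 with the GC content of that region, of -0.55 with that of the coding sequence and of -0.59 with the lowest GC content of any 200-base coding window. Genes were then divided into 5 quintiles by the coding window and 5 by the 3′ region. The 939 genes in the lowest quintile of both had a median difference of 1.12, and 54.4% of them were set apart as higher. The 512 genes with the lowest 3′ GC content but a coding window in quintile 2 had 0.55, and the 560 with the lowest coding window and a 3′ region in quintile 2 had 0.50. Where both were in the highest quintile (908 genes) the median was -0.32. By the coding window alone, the 43 genes whose poorest window was at or below 28% GC had a median of 2.78 and 38 of them were set apart, while the 2542 genes above 48% had -0.25 and 42 were set apart.

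The difference also went with length, to a smaller extent. Among coding genes with 38% to 42% GC, those with more than the median coding length of 1372.5 bases differed by a median of 1.33 and the others by 0.92. Transcript length, number of exons and span of the gene pointed the same way in that range of GC content. The number of ATTTA pentamers in the 3′ untranslated region, the core of the AU-rich elements that mark short-lived messages, had a Spearman correlation of 0.43 with the difference over all coding genes. It was -0.01 within 38% to 42% GC, 0.03 within 42% to 46%, 0.08 within 46% to 50% and 0.14 within 50% to 55%.

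Single genes departed from this trend in either direction. Zfp207, with 37.4% GC over the transcript but 48.4% in its coding sequence, was at 258, 254, 257 and 272 CPM in ULP 5, ULP 6, HP 4 and HP 5, against 225 CPM in ULP 4 and 226 CPM in HP 6, a log2 difference of 0.21. Psmc6, an ATPase of the proteasome base, has 37.6% GC over the transcript and was at 107, 133, 151 and 179 CPM, against 32.1 and 39.6 CPM, a difference of 1.97. Rsrp1, which codes for a protein rich in arginine and serine, has 51.7% GC and was at 132, 153, 196 and 333 CPM, against 39.6 and 60.6 CPM, a difference of 1.96. Genes of like GC content thus differed widely.

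The nuclear long non-coding RNAs stood above coding genes of the same base composition. Of 16 measured members of this list, all were higher in every Malat1-high library than in both Malat1-low ones and 14 were set apart, against 11.3% of all genes. Their median difference was 2.24, against -0.02 over all genes, and the median distance from coding genes of the same GC content was 1.92, with all 16 above. Malat1 and Neat1 are members and chose the libraries. Mir17hg, the host transcript of a microRNA cluster, had a log2 difference of 3.45, Dleu2, another microRNA host, 2.93, and Ftx, a neighbour and activator of Xist, 2.78. Xist itself, which coats the inactive X chromosome, was at 120, 169, 197 and 485 CPM in ULP 5, ULP 6, HP 4 and HP 5, against 23.0 CPM in ULP 4 and 42.9 CPM in HP 6, and again HP 5 was the highest.

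The hosts of small nucleolar RNAs, which guide the chemical modification of ribosomal RNA and are cut from introns, also lay high: 13 of 14 were higher in every Malat1-high library and 8 were set apart, with a median difference of 1.29. Snhg1 was at 25.4, 32.9, 56.5 and 89.9 CPM, against 6.52 and 10.01 CPM. Gas5 was at 76.5, 84.0, 107 and 172 CPM, against 34.7 and 30.03 CPM. Snhg1 and Gas5 have transcripts of 49.7% and 49.2% GC, close to the median of all genes. Taf1d, a subunit of the polymerase I promoter factor, and Snhg6 had differences of 2.11 and 1.93. Over all classes of gene, 139 of 530 long non-coding RNAs (26.2%) and 1204 of 11260 protein-coding genes (10.7%) were set apart as higher, and 72.4% of the genes set apart as higher were protein-coding. By number, protein-coding genes were thus the larger part of what was higher in Malat1-high libraries, and the place of their transcripts in the cell was not measured.

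Genes of nuclear bodies and splicing moved with the axis in part. Of 43 SR proteins, CLK kinases and speckle-linked splicing genes, 18 were set apart as higher, against 11.3% of all genes, and the median difference was 0.75. Srsf10, an SR protein that represses splicing when dephosphorylated, was at 68.1, 82.2, 103 and 123 CPM in ULP 5, ULP 6, HP 4 and HP 5, against 16.6 CPM in ULP 4 and 22.0 CPM in HP 6. Rbm39, a cofactor of the spliceosome, was at 191, 220, 264 and 357 CPM, against 56.9 and 73.9 CPM. The helicase Ddx5, among the most abundant members, had a small difference of 0.32. Among 28 genes of nuclear RNA decay and poly(A) metabolism 3 were set apart, a share of 10.7% that is near the 11.3% of all genes (Zfc3h1, 1.88, and Rbm7, 1.497, which both recruit the nuclear exosome, and the deadenylase Cnot6l, 1.35).

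Of 40 chromatin regulators with large proteins 16 (40%) were set apart, against 11.3% of all genes, and the median difference was 0.85. Their median distance from coding genes of the same GC content was 0.65. After a loess correction for GC content and gene length, 6 of the 40 were set apart, with a median of 0.25. Phip, a bromodomain protein, was at 44.3, 49.1, 49.5 and 63.5 CPM, against 1.82 CPM in ULP 4 and 3.74 CPM in HP 6. Atrx, a remodeller of heterochromatin, was at 93.8, 120, 124 and 180 CPM, against 5.61 and 10.9 CPM. Chd4, the most abundant member and a remodeller with 52.9% GC, was at 380, 348, 338 and 362 CPM, against 406 and 404 CPM, so all 4 Malat1-high libraries lay below both Malat1-low ones. A list of 40 very large cytoplasmic and cytoskeletal proteins, set beside it, held 15 set apart genes (37.5%) with a median of 0.57. Their median distance from coding genes of the same GC content was 0.43, and after that correction 13 were set apart. The list also holds the chromatin protein Rif1 (3.54) and the kinetochore protein Cenpe (3.40). The 2 lists therefore cannot separate the size of a protein from its place in the cell. Cenpf, a kinetochore protein, had a difference of 3.77, whereas Flna had -0.40 and the dynein heavy chain Dync1h1 -0.13. The spread inside the list was much wider than the distance between the medians of the 2 lists. Of 248 numbered Zfp genes, which code for zinc finger proteins, 64 (25.8%) were set apart with a median of 0.32, led by Zfp292 (3.93). Their median distance from coding genes of the same GC content was 0.12. After the same correction 30 of the 248 were set apart, with a median of 0.08.

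**Figure D4:**
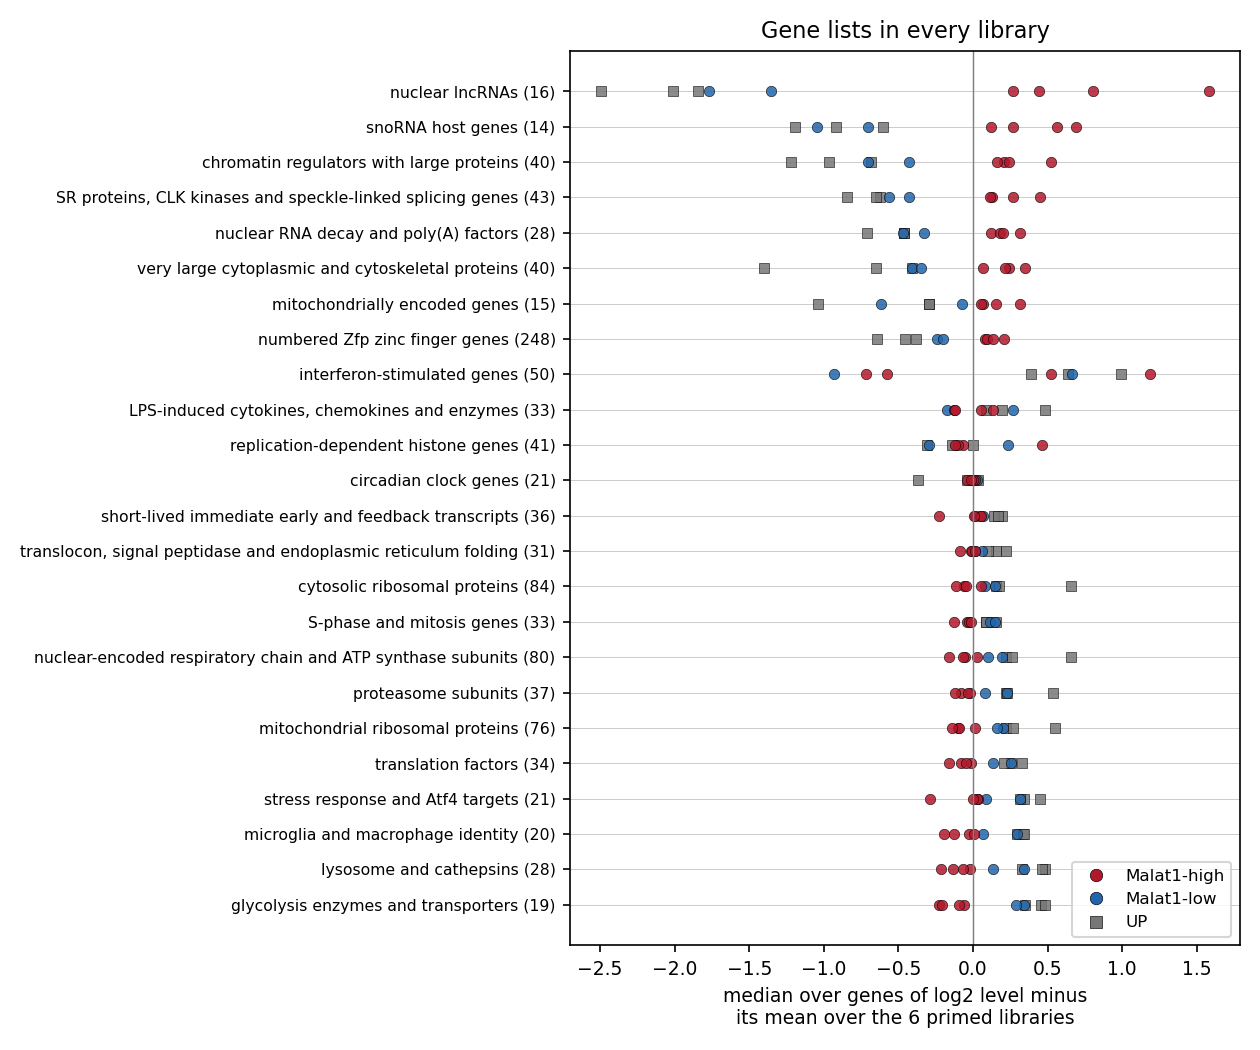
For each gene list of at least 10 measured genes (number in brackets), the median over its genes of the log2 level relative to the mean of the 6 primed libraries, in each Malat1-high (red), Malat1-low (blue) and UP (grey) library. Nuclear long non-coding RNAs stood at 0.27 to 1.58 in Malat1-high and at -1.77 and -1.35 in Malat1-low libraries, and the interferon-stimulated genes stood at -0.93 to -0.58 in the HP and at 0.53 to 1.19 in the ULP libraries, whichever their class.

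Abundant housekeeping messages filled the other side of the axis, with small differences. Of 19 glycolysis enzymes and transporters 16 were lower in every Malat1-high library than in both Malat1-low ones, and the median difference was -0.46. Pkm, the pyruvate kinase of proliferating cells, was at 2357, 2006, 2294 and 2071 CPM in ULP 5, ULP 6, HP 4 and HP 5, against 3125 CPM in ULP 4 and 3032 CPM in HP 6. Aldoa, an aldolase, was at 1461, 1262, 1424 and 1264 CPM, against 1998 and 1858 CPM. None of the 19 was set apart, since no difference in the list was beyond -0.55.

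Lysosomal genes (median -0.34, 19 of 28 lower without overlap), mitochondrial ribosomal proteins (-0.30, 49 of 76), proteasome subunits (-0.27, 22 of 37), nuclear-encoded respiratory chain subunits (-0.26, 44 of 80) and cytosolic ribosomal proteins (-0.17, 44 of 84) lay on the same side. The share lower without overlap was 31.4% over all genes. A few members of these lists were set apart in the opposite direction. Psmc6 was so among proteasome subunits, and Rpl22l1, a paralogue of a ribosomal protein with 39.96% GC, was at 35.3, 41.9, 50.8 and 60.7 CPM, against 13.6 and 12.3 CPM. Cox7b, a subunit of cytochrome oxidase with 42.01% GC, had a difference of 1.25 and Cox6c, with 48.7% GC, one of 1.66.

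Translation factors split in the same manner: 5 of 34 (14.7%) were set apart as higher, against 11.3% of all genes. Another 20 were lower without overlap, against 31.4% of all genes, and the median was -0.32. Eif3a, the largest subunit of an initiation factor, was at 819, 889, 845 and 960 CPM, against 302 and 399 CPM. Eef2, the elongation factor that moves the ribosome, was at 3977, 3599, 3355 and 3159 CPM, against 5356 and 4575 CPM. Eef1a1 had a difference of -0.35. Members of a single pathway were therefore found on both sides of the axis, Eif3a with 44.8% and Eef2 with 57.0% GC.

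The 15 mitochondrially encoded genes, which are poor in GC but are made outside the nucleus, did not follow the trend of nuclear genes. Their median GC content was 35.98% and their median difference 0.51, which is 1.62 below nuclear coding genes of the same GC content, with none of the 15 above. The most abundant, mt-Co1 and mt-Nd1, had differences of -0.13 and 0.03. mt-Atp8, mt-Rnr2 and mt-Nd3 were set apart, with 2.03, 1.53 and 1.02. The 2 doses did not give the same picture here, since the median difference of the list was 0.86 within HP and 0.16 within ULP. The mitochondrial share of all counts was 4.13% to 4.75% in Malat1-high libraries, 4.30% in ULP 4 and 3.19% in HP 6.

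Some stress and cell cycle genes were set apart within lists whose median was below 0: 2 of 21 stress response genes (median -0.33) and 2 of 33 genes of S phase and mitosis (-0.22). These shares, 9.52% and 6.06%, were below the 11.3% of all genes. Hsp90aa1, a cytosolic chaperone, was at 1582, 1833, 1973 and 2107 CPM, against 685 and 865 CPM, while its fellow chaperone Hspa8 had a difference of -0.43. Mki67, the proliferation antigen, was at 187, 221, 218 and 270 CPM, against 50.5 and 88.5 CPM, while the replicative helicase subunit Mcm6 had -0.40. Of 31 genes of secretion and endoplasmic reticulum folding 1 was set apart (median -0.10), and the chaperones Hspa5 and Calr had 0.22 and -0.44. Of 21 circadian genes 4 were set apart (median -0.02), led by the transcription factor Clock at 2.43. No replication-dependent histone gene of 41 was set apart, and Ptprc, the leukocyte phosphatase CD45, had 1.13 with 6116 to 7927 counts in Malat1-high and 2968 and 3130 counts in Malat1-low libraries. It was the only set apart gene of 20 tested microglial markers (median -0.34). The abundant markers Lyz2 and Cd68 had 0.29 and -0.39.

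The genes by which an LPS response is usually read mostly overlapped between the classes, and 36.2% of all genes did (5324 of 14702). Of 33 LPS-induced cytokines, chemokines and enzymes 3 were set apart as higher (Ccl12, Cxcl16 and Ptgs2), a share of 9.09% that is near the 11.3% of all genes, the median difference was 0.02, and 24 overlapped between the classes. Ptgs2, the inducible cyclooxygenase, was at 49.7, 48.3, 40.5 and 44.05 CPM, against 24.2 CPM in ULP 4 and 19.3 CPM in HP 6, with 41.3% GC. The most abundant, Acod1 and Ccl3, had differences of -0.03 and -0.16. Of 36 immediate early and feedback transcripts, among them Nfkbia (-0.09) and Atf3 (-0.32), none was set apart, with 27 overlapping and a median of -0.09. Of 50 interferon-stimulated genes 4 were set apart (Gbp7, 3.47, Samd9l, 3.19, Gbp3, 2.76, and Herc6, 1.45), and 45 overlapped. The overlap rule pools the doses, so a gene that differs between HP and ULP tends to overlap. Of these 50 genes 43 were lower in all 3 HP than in all 3 ULP libraries. Of the 33 LPS-induced genes 15 were lower and 3 higher in this way. The overlaps of the interferon-stimulated and LPS-induced genes between the classes therefore cannot show whether these genes follow the axis. The share of all genes without overlap between the doses was not counted, so these counts have no background beside them.

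The last comparison asks what the axis does to the contrast that the study was built for, HP against ULP, since each dose holds 2 Malat1-high libraries and 1 Malat1-low library. The quasi-likelihood test of edgeR over 14587 genes, with dose alone, called 0 genes higher in HP (0%) and 0 lower (0%) at an adjusted p under 0.05. The smallest adjusted p was 0.110, 657 genes had an unadjusted p under 0.05, and DESeq2 in the same design called 15 higher and 91 lower. With the class of the library as a term, edgeR called 520 genes higher (3.56%) and 610 lower (4.18%). The class comes from the same values, so this term can make the residual spread, and with it the p-values, too small. In the class-term fit, 1126 of the 1130 called genes had the same direction among Malat1-high and among Malat1-low libraries. The calling favours such agreement, since the fit gives both classes a common dose effect and used these same libraries. It is therefore no separate check of the calls. The class-term count depended on single libraries: it was 310 without HP 6, 324 without ULP 4, 400 without ULP 5, 624 without ULP 6, 1036 without HP 5 and 1579 without HP 4.

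Interferon-stimulated genes were lower in HP libraries of both classes. These genes are switched on by type I interferon, which cells release after LPS, and many block viral replication. With the class term 45 of 50 were called lower in HP and 0 higher, against 4.18% and 3.56% of all genes. Without it 0 were called, although 43 had an unadjusted p under 0.05, against 657 of all 14587 genes. In all 3 HP libraries 43 were lower than in all 3 ULP libraries, a share not counted over all genes. Their median log2 fold change was -1.52 with the term and -1.53 without it. The design fixes this likeness, since both doses hold the same mix of classes. Between Malat1-high libraries the median was -1.43, and between the Malat1-low libraries HP 6 and ULP 4 it was -1.49. DESeq2 without the class term called 40 of them lower.

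Because no gene passed with dose alone, the genes named for this contrast come from the class-term fit. Ifit3, which binds foreign RNA in a complex with Ifit1, was at 1.41, 2.03 and 1.10 CPM in HP 4, HP 5 and HP 6, against 12.6, 7.74 and 17.8 CPM in ULP 4, ULP 5 and ULP 6, a log2 fold change of -3.09 (edgeR adjusted p = 0.000474). Oasl2, of the oligoadenylate synthetase family, was at 6.12, 6.82 and 6.27 CPM in HP, against 37.3, 24.3 and 39.3 CPM in ULP libraries, a fold change of -2.41 (adjusted p = 7.47e-05). Neither gene overlapped between the doses, HP 6 and ULP 4 included, but the rule by which they were named required this. Rsad2 (-2.82), Slfn5 (-2.76) and Ifit1 (-2.65) were the other 3 of the 5 that fell most in HP among genes called with the class term, with a mean of at least 5 CPM and no overlap between the 3 HP and 3 ULP libraries.

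By the same rule the 5 that rose most in HP were Cyp11a1, which starts steroid synthesis (1.00), Lcn2, a siderophore-binding protein (0.96), Ehd2, a membrane-shaping ATPase (0.84), Hmox1, the haem-degrading oxygenase (0.71), and H1foo, a linker histone (0.70). Hmox1 was at 1188, 1061 and 1405 CPM in HP 4, HP 5 and HP 6, against 833, 754 and 617 CPM in ULP 4, ULP 5 and ULP 6 (edgeR adjusted p = 0.00115 with the class term and 0.430 without). Larger called changes, such as that of Xist (1.12, adjusted p = 0.0331 with the class term), fall outside the rule because the doses overlap. In the fit with dose alone the adjusted p-values of the 5 ran from 0.204 to 0.784.

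**Figure D5:**
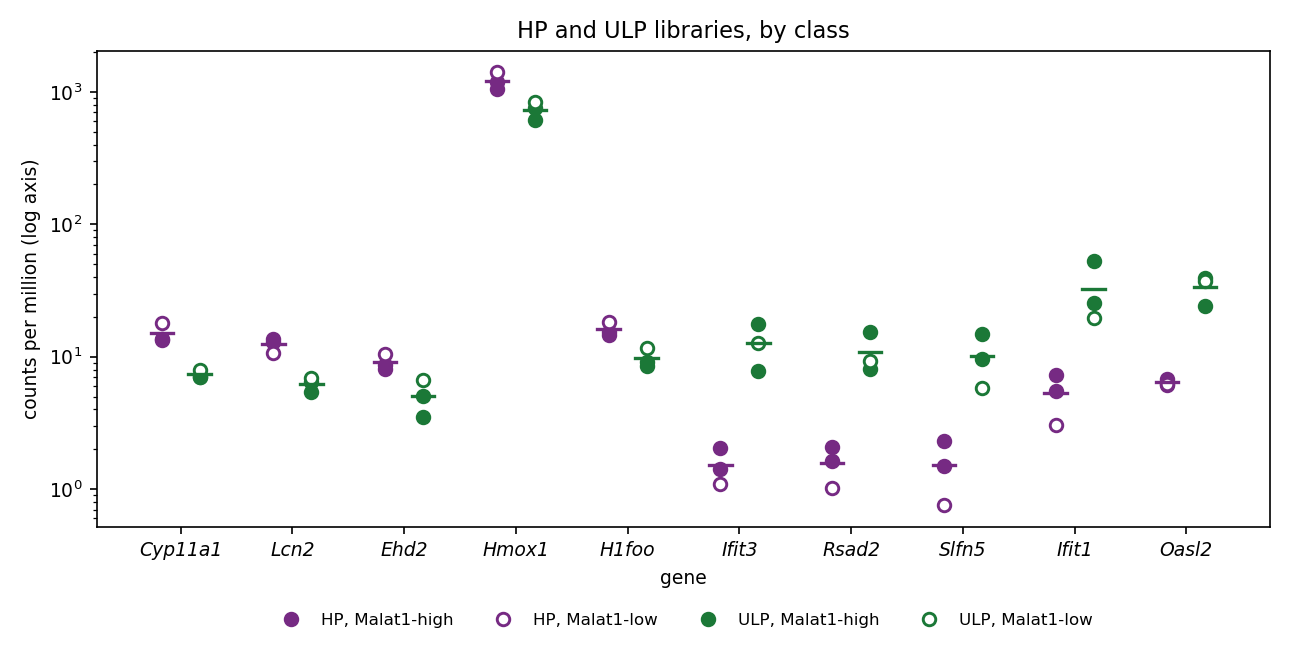
Levels in CPM (log axis) of the 10 genes with the largest changes between HP (purple, left of each pair) and ULP (green, right) in the class-term fit among called genes whose 3 HP and 3 ULP libraries do not overlap, with filled circles for Malat1-high and open circles for Malat1-low libraries and bars for means. Ifit3 was at 1.10 to 2.03 CPM in HP and at 7.74 to 17.8 CPM in ULP libraries.

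The nuclear RNAs overlapped between the doses. Malat1 and Neat1 defined the classes, so no test of them is given. Within each class Neat1 was higher in HP than in ULP libraries, at 143 and 375 CPM against 60.8 and 76.6 CPM in the Malat1-high and at 27.8 CPM against 16.4 CPM in the Malat1-low libraries. Of the 16 nuclear long non-coding RNAs, which include these genes, 5 were called higher in HP with the class term (4 without HP 5). Neat1 is among those 5, and its call carries no weight, since it helped define the class. Of the 14 hosts of small nucleolar RNAs 5 were called higher (5 without HP 5), and of the 43 SR protein and speckle genes 16 (12 without HP 5). Over all genes 3.56% were called higher in that fit. None of the genes in these 3 lists was higher in all 3 HP than in all 3 ULP libraries. HP 5 stood at the far end of the axis for most of these RNAs, as for Neat1 at 375 CPM, and a term with 2 classes does not model differences among the Malat1-high libraries.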

How the data were processed

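Poly(A)-selected, stranded libraries were sequenced as single reads. The authors assigned reads to genes with TopHat2 2.1.0 and featureCounts 1.5.0 after bcl2fastq 1.8.4, per the submitters' processing notes, which name GRCm38, while the supplementary methods name another build. Whether reads were counted by strand is not stated, so overlapping antisense genes cannot be told apart. The deposited read counts per gene (48526 genes, 24933 with no count) were analysed, and the deposited RPKM values, scaled for gene length and library size by the authors, served as an alternative. The deposited RPM columns were not used.

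Genes kept by edgeR's filterByExpr (14702) were scaled by TMM, and log2 CPM used a prior count of 2. The class difference is a coefficient of a linear fit on dose and class. The members, the gene lists and the tests were chosen with earlier results of these data known. Named genes were, among set apart genes with a mean of at least 5 CPM and no clone-type symbol, the 10 largest differences in each direction (no gene was left on the lower side). To these were added, per list, up to 4 set apart members with a mean of at least 1 CPM, the 2 most abundant members, Malat1 and Neat1, and for HP against ULP the 5 largest called changes in each direction with a mean of at least 5 CPM and no overlap of the doses. Genes singled out for their GC content (Zfp207, Psmc6, Rsrp1 and others within these names) were picked after their values were seen. GC content, lengths and sequences are from the canonical GENCODE transcripts on GRCm39, matched by Ensembl ID. Some symbols in the table are shared by 2 IDs, among them Itgam.

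HP was tested against ULP with edgeR 4.0.16 (R 4.3.3), with DESeq2 1.42.0 and limma 3.58.1 as alternatives, and Benjamini-Hochberg adjustment over all genes. On simulated data for HP over ULP (14587 genes, 200 changed) edgeR with the class term recovered 100% of changes of 1 on the log2 scale, and without it 36%; at 2 it recovered 100% and 87%. The class term gave 23 false calls among the unchanged genes, and the fit without it 0. The simulation gave the libraries of a class the same mean apart from the set changes, and took its spread from the class-term fit. Only genes with ample counts were changed. It therefore favours the class-term fit, and differences among the real Malat1-high libraries were not modelled. Alternatives covered scaling, filters, prior count, RPKM with pseudocounts of 0.1 and 1, loess correction for gene length and for GC content, the replicate number as a block, and leaving out each primed library. Some genes that the naming rule selects are not reported here.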

Additional observations from a re-analysis of the deposited data

Results flagged for a closer look

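LPS-induced cytokines, chemokines and enzymes differed between the doses: the median difference of the 33 genes, Malat1-high minus Malat1-low, was 0.094 within HP and -0.16 within ULP on the log2 scale, with every Malat1-high library above HP 6 in HP and below ULP 4 in ULP. This difference between doses was not tested.

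Among the 114 named genes, 3 had a Malat1-high library far from the other 3, each time HP 5: Snhg17 was at 61.2 CPM, Baz1a at 272 CPM and Nfkbia at 251 CPM. Among the 26 gene lists, 3 had such a library: HP 5 for stress response and Atf4 targets, whose genes had a median of -0.29 relative to the mean of the 6 primed libraries, ULP 5 for markers of other cell types (-0.26), and HP 4 for replication-dependent histone genes (0.47). Chance flags about 1 in 20 such groups of 4.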

How the results depend on the processing

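The number of genes set apart as higher (1662) stayed within 1.5 times under RLE or upper quartile scaling, library totals, a prior count of 0.5, RPKM with a pseudocount of 0.1, other filters, a gene length correction and the replicate block, and was 1544 to 1729 when a primed library was left out. It was 818 on log2(RPKM + 1), 806 after a loess correction for GC content and gene length and 782 with that correction and the replicate block. The number set apart as lower (4) was 12 with upper quartile scaling, 2 with library totals, 36 with no filter, 1 with a filter on mean CPM, 14 with a prior count of 0.5, 2 and 0 with RPKM and pseudocounts of 0.1 and 1, 9 after a length correction, 113 after a GC content and length correction, 10 with the replicate block, 112 with the block and that correction, and 2 to 31 when a library was left out. After the GC content and length correction the nuclear long non-coding RNAs kept a median of 1.85 with 13 of 16 set apart. By its construction that correction takes the GC trend out: GC deciles 2, 3 and 4 had medians of -0.039, -0.021 and -0.029, and with the replicate block -0.046, -0.020 and -0.029. Signs also turned for Cnot6l (-0.40, with the block -0.38), mt-Atp8 (-0.68, -0.87), mt-Rnr2 (-0.28, -0.24), mt-Nd3 (-1.39, -1.46), the mitochondrially encoded genes (-1.12, -1.15), the very large cytoplasmic proteins (-0.020, -0.048) and, with the block only, the cytosolic ribosomal proteins (0.029), and the cause was not tested.

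The genes called between HP and ULP (0) were 1130 with the class term, 106 with DESeq2, 1013 with DESeq2 and the class term, 198 with limma and the class term, 15 with no filter, 25 with all 9 libraries in 1 fit, 986 with the replicate block and the class term, 0 with the replicate block alone (297 at an unadjusted p under 0.05), and 0 in each fit that left out 1 library. With the class term they were 310 without HP 6, 324 without ULP 4, 400 without ULP 5, 624 without ULP 6, 1036 without HP 5 and 1579 without HP 4. The class term in DESeq2, limma and the fits without a library, and the depth without a library, were chosen after the data were seen. Same-numbered HP and ULP libraries had correlated deviations of -0.72, 0.68 and -0.84 for numbers 4, 5 and 6. Only number 5 has both libraries in the same class, so these signs follow the classes. They cannot show whether the numbers pair the libraries. Total counts of Malat1-high minus Malat1-low libraries were 241721 apart, and -204812 to 876817 when a library was left out. The 2 Malat1-low libraries limit every value of that class to 1 library per dose.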
